A study of Mus musculus with 3 samples.

Results

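The genes described here are the 208 active genes along mouse chromosome 2 that the study picked as targets of its intron probes, followed in the single-cell RNA-sequencing (RNA-seq) counts. Of the 208 names, 207 matched the symbol column of the count tables, and 1 (March7, an E3 ubiquitin ligase) was matched by its identifier because its name is stored as a date. The count tables hold 9517 genes with a mean of at least 1 unique molecular identifier (UMI, 1 captured transcript) per cell. All 208 listed genes are among them, so that 0 fell under 1 UMI, and 146 had a mean of at least 10. The annotation (GENCODE vM21, mouse build GRCm38) places 207 of them on chromosome 2, with 109 on the plus strand and 98 on the minus strand. Hnrnpa1, which encodes a heterogeneous nuclear ribonucleoprotein, lies on chromosome 15 in that annotation (103240432 to 103246692) and was kept in the levels and left out of the pairs. Sdccag3, 1110008F13Rik and Rtfdc1 carry newer symbols in the annotation.

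The cells are JM8.N4 mouse embryonic stem (ES) cells from C57BL/6N mice, grown without feeders in serum medium with 2i inhibitors and LIF. Both groups carry the same edit, RAD21 fused to an auxin-induced degron by CRISPR/Cas9. Control cells were compared with cells given 500 µM auxin (indole-3-acetic acid) for 6 h, in 3 replicates, by Smart-SCRB, a plate-based assay with UMIs. Treatment went by whole 96-well plate, with 2 plates per condition in replicate 1, 4 in replicate 2 and 1 used in replicate 3, where plate and treatment cannot be told apart.

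Cohesin is a ring-shaped complex that extrudes chromatin loops and holds sister chromatids together, and RAD21 is the subunit that closes the ring. With auxin, the degron recruits a ubiquitin ligase and the tagged protein is degraded while its messenger RNA is still made. The listed genes include members that work in mitosis, DNA replication, RNA processing, protein degradation and the secretory pathway. Genes of the mitotic programme are transcribed late in the cell cycle and are known to vary together between cycling cells.

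In replicate 3, 2 plates (168 cells) carry 1 condition in the deposited annotation and the other in the source values of the study's plot of detected genes, and were set aside, which left 1167 cells, between 84 and 371 for each replicate and condition, and sums of 6064936 to 50448320 UMIs. Rad21 mRNA stood at 20.9, 31.2 and 42.4 CPM (a gene's UMIs scaled to a common total) in control and 19.3, 34.0 and 45.2 CPM in auxin cells of replicates 1, 2 and 3, which does not measure the protein. The 10 ES cell markers summed to between 2948 and 10325 CPM, most of it Dppa5a (2118 to 7998 CPM), and defining markers were uneven between replicates. Pou5f1 stood at 273 and 228 CPM in control and auxin cells of replicate 1, at 8.40 and 5.81 CPM in replicate 2 and at 12.5 and 10.9 CPM in replicate 3, and Sox2 at 155 and 97.3 CPM in replicate 1 and listed at 0 in the others. Whether the replicates were counted with the same annotation and settings is not given in the sources used here, so a listed 0 may not be a level. In replicate 2, Nanog (58.6 and 38.9 CPM), Tfcp2l1 (4.10 and 2.52 CPM) and Klf4 (2.75 and 1.17 CPM) were also at their lowest, whereas Utf1 was at its highest (182 and 174 CPM, against 29.4 and 9.20 CPM in replicate 1 and 52.1 and 11.96 CPM in replicate 3). Tdgf1 stood at 642, 620 and 638 CPM in control and 508, 527 and 523 CPM in auxin cells of replicates 1, 2 and 3. Pou5f1, Esrrb, Klf4 and Utf1 were also lower after auxin in each replicate, whereas Nanog, Zfp42, Tfcp2l1 and Dppa5a changed direction between replicates. The 7 fibroblast or feeder markers summed to between 1.87 and 27.3 CPM, the 6 of primitive endoderm to between 6.88 and 19.1 CPM and the 5 of trophoblast to between 7.18 and 40.2 CPM. The trophoblast sum was lower after auxin in each replicate (40.2 and 14.7 CPM, 7.71 and 7.18 CPM, and 32.0 and 16.2 CPM), as was Klf4 (141 and 64.5 CPM in replicate 1, 72.7 and 27.5 CPM in replicate 3). Most of the trophoblast sum was Tfap2c (33.5 and 13.5 CPM, 5.51 and 3.61 CPM, and 28.5 and 13.9 CPM). Cdx2, Elf5 and Hand1 stayed under 1 CPM. Krt7 was lower after auxin in replicates 1 and 3 and higher in replicate 2 (1.63 and 2.70 CPM). The 4 neural markers summed to between 5.38 and 140.5 CPM, with Tubb3 at 73.1 and 117 CPM in replicate 1 and at 0 in the others. The part of these marker differences in the results was not tested.

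The strongest shared behaviour among the listed genes was that of the mitotic members Ube2c, Nusap1, Aurka and Ckap2l, so the 250 bases before their starts in RefSeq are shown first. Ube2c encodes the E2 enzyme that charges the anaphase-promoting complex with ubiquitin, Nusap1 a protein that bundles spindle microtubules, Aurka the spindle-pole kinase Aurora A and Ckap2l a spindle-associated protein. The sequences are RefSeq windows of build GRCm38.p6, read 5′ to 3′ along each gene's own strand, at chr2:164769679-164769928 (plus, Ube2c), chr2:119618048-119618297 (plus, Nusap1), chr2:172370571-172370820 (minus, Aurka) and chr2:129297213-129297462 (minus, Ckap2l). Capitals mark CCAAT, the letters bound by the factor NF-Y, and the cell cycle homology letters TTTGAA or TTTAAA, each on either strand.
Ube2c: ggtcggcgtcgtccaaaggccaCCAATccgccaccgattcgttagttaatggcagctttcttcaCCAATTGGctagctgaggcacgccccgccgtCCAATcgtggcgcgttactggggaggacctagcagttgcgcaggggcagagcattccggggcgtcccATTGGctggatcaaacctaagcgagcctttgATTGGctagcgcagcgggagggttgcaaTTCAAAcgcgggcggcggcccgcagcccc
Nusap1: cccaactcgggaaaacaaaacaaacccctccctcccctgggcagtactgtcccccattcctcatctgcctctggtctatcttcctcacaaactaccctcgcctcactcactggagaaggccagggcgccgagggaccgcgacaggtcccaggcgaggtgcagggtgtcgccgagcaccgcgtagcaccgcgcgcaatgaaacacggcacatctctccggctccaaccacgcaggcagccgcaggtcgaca
Aurka: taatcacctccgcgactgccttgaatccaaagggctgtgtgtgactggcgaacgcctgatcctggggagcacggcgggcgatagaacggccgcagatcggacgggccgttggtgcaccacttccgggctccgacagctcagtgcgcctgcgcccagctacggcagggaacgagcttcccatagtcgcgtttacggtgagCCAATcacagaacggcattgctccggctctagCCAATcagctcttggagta
Ckap2l: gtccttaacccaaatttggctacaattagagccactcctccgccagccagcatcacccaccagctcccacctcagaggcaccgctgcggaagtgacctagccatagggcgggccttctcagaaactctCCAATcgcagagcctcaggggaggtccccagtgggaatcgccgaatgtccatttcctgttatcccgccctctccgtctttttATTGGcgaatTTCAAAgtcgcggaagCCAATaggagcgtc

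The Ube2c stretch holds 6 CCAAT matches, with overlapping matches counted separately, and 1 cell cycle homology match. Aurka holds 2 CCAAT matches before its RefSeq start and both of its cell cycle homology matches after it, within the 50 further bases of the window, while Nusap1 holds neither. The GENCODE start of Aurka, used for the pairs below, is a different one (172370535). Over the windows of 300 bases, both motifs were present in 5 of the 13 mitotic members that the table covers (38.5%), in 20 of 184 listed genes (10.9%) and in 10.9% of the first windows of all 27025 genes. These matches describe letters and not binding.

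The listed genes differed widely in level. The median was 104 CPM over the 6 sums (each replicate and condition), against 22.3 CPM for the 538 other chromosome 2 genes and 34.5 CPM for the 8763 genes of other chromosomes of at least 1 UMI, and the list was drawn from active genes. Together they took 3.21, 3.25 and 3.28% of all UMIs in control cells of replicates 1, 2 and 3, and 3.28, 3.41 and 3.39% in auxin cells. The auxin share was higher in all 3 replicates, by 0.117 ± 0.0495 percentage points (SD, n = 3; exact sign-flip permutation test over replicates, two-sided p = 0.25, the smallest that 3 replicates allow). The share of the other chromosome 2 genes was also higher in each replicate (1.83, 2.14 and 2.08% in control and 1.86, 2.22 and 2.10% in auxin cells).

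The 6 highest members were Eif2s2, Hnrnpa1, Psma7, Atp5c1, Fkbp1a and Rbm39. Eif2s2 encodes the beta subunit of translation initiation factor eIF2, and its level was 1065, 722 and 1811 CPM in control cells of replicates 1, 2 and 3 and 935, 584 and 1448 CPM in auxin cells. It was lower after auxin in each replicate, although the replicates themselves lay further apart than the conditions. Psma7, a subunit of the 20S proteasome core, stood at 815, 1125 and 857 CPM in control and 841, 1213 and 957 CPM in auxin cells. Fkbp1a, the immunophilin that binds FK506, stood at 634, 651 and 572 CPM in control and 685, 722 and 620 CPM in auxin cells. Both were higher after auxin in each replicate.

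The 6 lowest members by mean level were Alkbh3, Oser1, Nfs1, Sys1, Tmx2 and Psmb7, and all but Psmb7 stood far higher in replicate 1 than in the others. Tmx2, a thioredoxin-related membrane protein of the endoplasmic reticulum, gave 93.6 CPM in control and 100.3 CPM in auxin cells of replicate 1, with UMIs in 142 of 168 and 152 of 169 cells. In replicates 2 and 3 it gave 1 UMI in all. If its reads were counted there as in replicate 1, the counts of 0 in control cells allow at most 0.0612 and 0.495 CPM. Sys1, which brings a small GTPase to the Golgi, stood between 90.01 and 97.8 CPM in replicate 1 and between 0.299 and 1.32 CPM in the others.

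Such gaps between replicates were also seen in other members. The control level of AA467197 was 210 CPM in replicate 1, 1.20 CPM in replicate 2 and 47.7 CPM in replicate 3, a ratio of 175 between the highest and the lowest. The same ratio was 141 for Sys1, 81.6 for Ppp1r14d and 32.9 for Oser1, and none could be given for Tmx2. Averaged over conditions, 7 of 208 members were over 4-fold higher in replicate 1 than in the other replicates (3.37%), against 2.01% of all genes of at least 1 UMI, and 0 were over 4-fold lower, against 8.68%. On the same strand, 5 members overlap another protein-coding gene in the annotation (Arpc5l, Tmx2, Alkbh3, Nfs1 and Sys1). Averaged over conditions, Alkbh3 stood at 43.03 CPM in replicate 1 and 9.38 CPM in the others, Nfs1 at 51.5 and 14.7 CPM, and Arpc5l at 169 and 175 CPM. The overlapping genes of Tmx2 (Gm28635), Alkbh3 (Gm27027), Nfs1 (Gm28036) and Sys1 (Gm20458) were listed at 0 in replicate 1. In the others they ranged from 0.824 to 3.06 CPM, from 0.598 to 0.833 CPM, from 0 to 0.122 CPM and from 1.22 to 3.74 CPM. Wdr38, which overlaps Arpc5l, reached 1.39 CPM in replicate 1 and ranged from 0.614 to 1.81 CPM in the others. How each replicate's reads were assigned to overlapping genes was not tested. These gaps are shared by both conditions of a replicate.

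**Figure D1:**
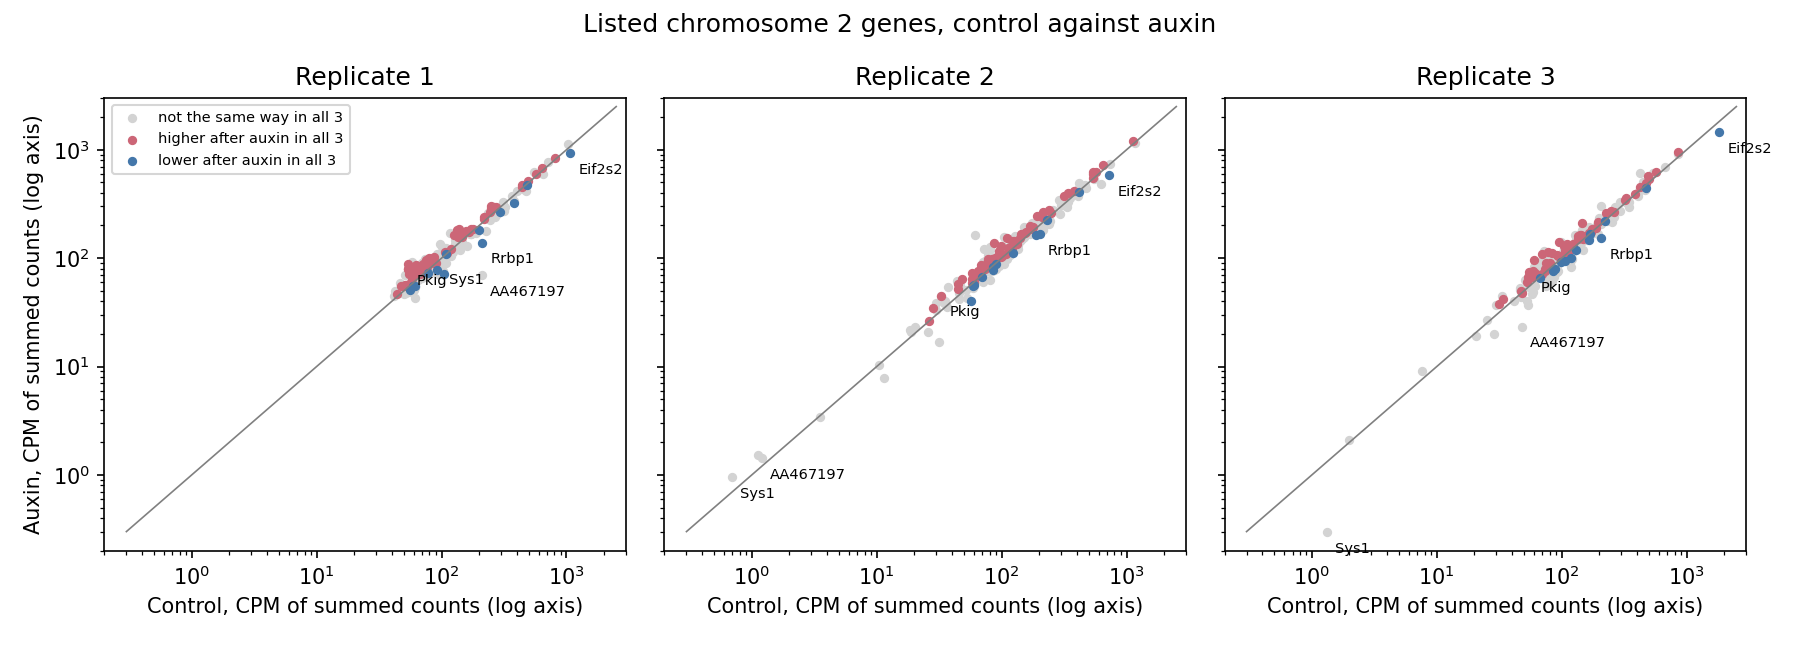
CPM of the listed genes in auxin cells (vertical axis) against control cells (horizontal axis), both log axes, 1 panel per replicate; each point is a gene, red points were higher and blue points lower after auxin in all 3 replicates, and the line marks equal levels. Genes at 0 cannot be drawn; points hug the line in every panel, and Sys1 and AA467197 fall far below their replicate 1 level in replicate 2.

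Next, auxin was compared with control for each member. None of the 207 members that passed the count filter was called by the edgeR quasi-likelihood test without pairing (Benjamini-Hochberg adjusted over 17514 genes, of which 0.00% were called), and 0 had an unadjusted p under 0.05, beside 33 of 17514 genes. A fit without pairing counts the differences between replicates as error, so its 0 says little about small changes. DESeq2 without pairing called 0 members too (0.00% of 38303 genes). Tmx2 was removed by the filter. When replicates were paired by a block term, edgeR again called 0 members (3 of 17514 genes, 0.0171%), 15 of 207 members had an unadjusted p under 0.05 (10 higher and 5 lower after auxin), beside 1036 of 17514 genes, and the lowest adjusted p was 0.556. DESeq2 with the same block called 2 members, Rrbp1 and Eif2s2 (61 of 38861 genes, 0.157%). Without replicate 2, edgeR with the block called 1 member, AA467197, with a log2 fold change of -1.36 ± 0.167 (SE; adjusted p = 0.000918), where 0.191% of all genes were called. This setting was not among those planned, and it drops the replicate in which AA467197 went the other way.

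Rrbp1 had the clearest separation. It encodes a ribosome-binding protein of the endoplasmic reticulum, and its level was 211, 201 and 208 CPM in control and 139, 167 and 153 CPM in auxin cells of replicates 1, 2 and 3. All auxin sums lay below all control sums. The plates gave the same order, from 159.9 to 174 CPM on the 4 auxin plates of replicate 2 against 175 to 222 CPM on its 4 control plates. The log2 fold change was -0.45 ± 0.10 (SE) in edgeR with the block (adjusted p = 0.556) and -0.46 ± 0.12 in DESeq2 with the block (adjusted p = 0.0139), so that the call depended on the tool. For Eif2s2 the corresponding values were -0.29 ± 0.07 (adjusted p = 0.628) and -0.30 ± 0.08 (adjusted p = 0.0371).

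AA467197, which encodes a small mitochondrial protein, was at 210 and 69.9 CPM in control and auxin cells of replicate 1, at 1.20 and 1.43 CPM in replicate 2 and at 47.7 and 23.3 CPM in replicate 3. Its direction thus differed in the replicate where it was near the floor.

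Among the members that moved the same way in all 3 replicates, Pkig had the largest mean log2 ratio of CPM. Pkig encodes an inhibitor of protein kinase A, and its level was 53.8, 32.9 and 58.5 CPM in control and 88.7, 45.1 and 75.5 CPM in auxin cells, a mean log2 ratio (with a pseudocount of 0.5 CPM) of 0.51 ± 0.18 (SD, n = 3). Commd3, of the copper metabolism domain family, stood at 90.9, 87.5 and 68.9 CPM in control and 90.9, 138 and 109.9 CPM in auxin cells, with a mean log2 ratio of 0.44 ± 0.38. Its value in replicate 1 was nearly equal between conditions, and the other replicates carried the difference.

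Polr3k, a small subunit of RNA polymerase III, stood at 76.4, 77.2 and 60.3 CPM in control and 84.03, 97.3 and 96.8 CPM in auxin cells. Pfdn4, a prefoldin subunit, stood at 125, 126 and 78.2 CPM in control and 164, 145 and 114 CPM in auxin cells. Mmadhc, which acts in vitamin B12 metabolism, gave 61.9, 95.3 and 61.3 CPM in control and 87.1, 117 and 73.0 CPM in auxin cells. All auxin sums of Polr3k lay above all its control sums, whereas the sums of Pfdn4 and Mmadhc overlapped between conditions.

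Baz2b, a bromodomain protein, gave 138, 57.4 and 146 CPM in control and 185, 59.5 and 213 CPM in auxin cells. Gpd2, the mitochondrial glycerol-3-phosphate dehydrogenase, gave 105, 123 and 119.7 CPM in control and 71.1, 110.6 and 100.1 CPM in auxin cells, and was lower in every replicate. None of these 8 members (Pkig, Commd3, Rrbp1, Polr3k, Pfdn4, Mmadhc, Baz2b and Gpd2) was past the edgeR threshold, with adjusted p between 0.556 and 0.826 with the block.

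**Figure D2:**
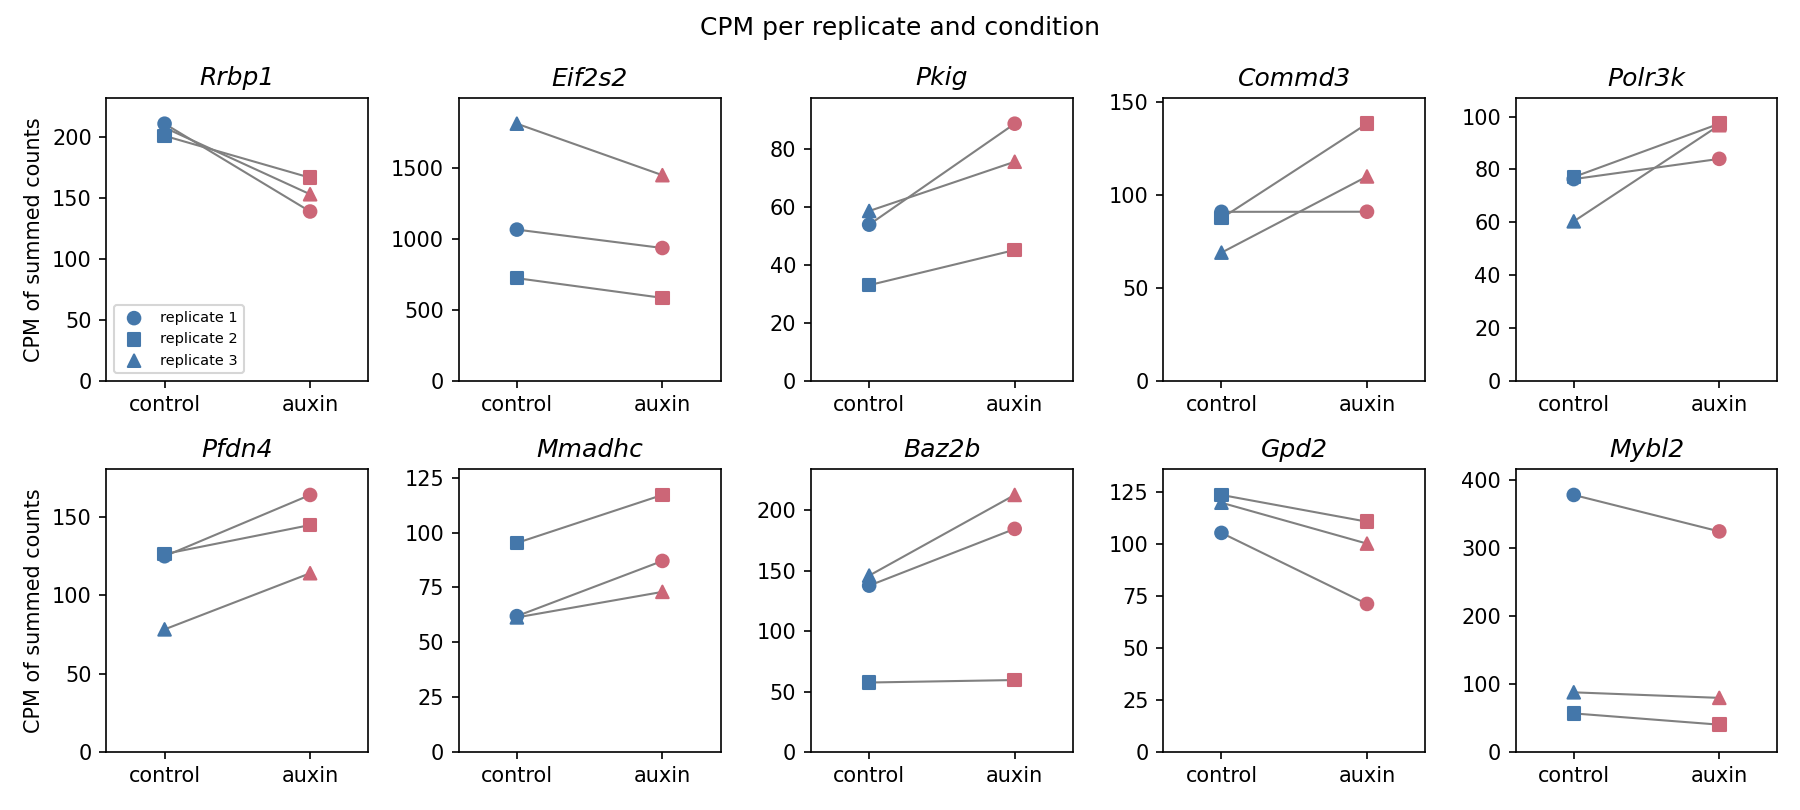
CPM of summed counts (vertical axes from 0) in control and auxin cells for 10 listed genes, with circles, squares and triangles for replicates 1, 2 and 3 and a line joining the conditions of a replicate. Rrbp1 is lower after auxin from about the same control level in each replicate, whereas Eif2s2 and Mybl2 differ more between replicates than between conditions.

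Over the whole list, differences were small and more often upward. The mean log2 ratio of 206 of 208 members was within 0.5 of zero, and 0 exceeded 1. In all 3 replicates 58 members were higher after auxin (27.9%, against 19.0% of the 9517 genes) and 13 were lower (6.25%, against 12.5%). Among genes with at least 10 UMI per cell the shares were 30.8% of 146 members against 20.9% of genes for higher, and 6.16% against 11.5% for lower. The median log2 ratio of the list was 0.05, 0.08 and 0.04 in replicates 1, 2 and 3, and 0.05, 0.05 and -0.01 over all 9517 genes.

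Relative to the genes of other chromosomes, the median of the list differed by -0.00148, 0.0307 and 0.0548 in replicates 1, 2 and 3. The mean, 0.0280 ± 0.0283 (SD, n = 3; exact sign-flip permutation p = 0.5), was thus within the spread between replicates. Relative to other chromosome 2 genes it differed by 0.0425, 0.00974 and 0.0487 (mean 0.0336 ± 0.0209, exact sign-flip permutation p = 0.25), higher in 3 of 3 replicates.

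In 7 members all 3 auxin sums lay above all 3 control sums (background 1.77%), namely Commd3, Surf4, Rab14, Spc25, Cat, Mapre1 and Polr3k, and Rrbp1 alone had the opposite order (background 0.715%). Commd3 was nearly equal between conditions in replicate 1 and is counted by a narrow margin. In replicate 2, which had 4 plates per condition, all auxin plates lay above all control plates for 38 members (background 10.9%) and below them for 8 (background 6.80%). When the plates of replicate 1 had to separate the same way and replicate 3 to share the direction, 6 members remained higher (Surf4, Ppp6c, Psmd14, Srp14, Naa20 and Pkig; background 1.90%) and 3 lower (Rrbp1, Eif2s2 and Mybl2; background 1.08%).

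No member of any functional list was called by edgeR, and differences between the lists were not tested. The list counts below are of members higher or lower in all 3 replicates, as were 19.0% and 12.5% of the 9517 genes. These counts are small and are not read as traits of the lists. Their median log2 ratios ran from -0.03 (S phase) to 0.11 (secretory pathway). In mitosis, 4 of 14 members were higher in all replicates (Spc25, Knstrn, Bub1 and Mapre1) and 0 lower. The median log2 ratio of this list was 0.15, -0.12 and 0.16 in replicates 1, 2 and 3, so that its direction changed in replicate 2. Aurka, for example, gave 116, 213 and 205 CPM in control and 171, 182 and 301 CPM in auxin cells, and Ube2c 550, 629 and 425 CPM against 629, 488 and 606 CPM. By mean log2 ratio Aurka (0.30 ± 0.45) and Ckap2l (0.28 ± 0.39) were the highest members, each with a replicate of opposite sign. The lowest were Haus2, an augmin subunit, at a mean log2 ratio of -0.12 ± 0.26, and Anapc2, of the anaphase-promoting complex, at -0.06 ± 0.16.

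Among the S phase genes, 2 of 9 were higher in all replicates (Dut at a mean log2 ratio of 0.10 ± 0.04 and Ssrp1 at 0.06 ± 0.03) and Mybl2, a transcription factor of proliferating cells, was lower. Mybl2 gave 378, 56.7 and 87.7 CPM in control and 325, 40.1 and 79.6 CPM in auxin cells. The sliding clamp Pcna gave 90.1, 80.8 and 84.4 CPM against 85.6, 83.7 and 84.6 CPM, a mean log2 ratio of -0.01 ± 0.06.

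Among the transcription and chromatin genes, 3 of 20 were higher in all replicates (Polr3k, Baz2b and Nelfcd) and 2 lower (Taf3 and Set). At the low end stood Mga, a MAX-binding repressor, at a mean log2 ratio of -0.15 ± 0.26 and Wdr5, a histone methyltransferase scaffold, at -0.12 ± 0.19. In RNA processing and export, 7 of 21 were higher and 0 lower, with Cstf3, a cleavage stimulation factor, at 0.23 ± 0.18 and the spliceosome-associated Ctnnbl1 at 0.23 ± 0.09. The splicing factors Snrpb2 (-0.11 ± 0.21) and Prpf6 (-0.10 ± 0.14) stood lowest.

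In the secretory pathway, 7 of 18 were higher and 2 lower (Rrbp1 and Arfrp1), with Sys1 at a mean log2 ratio of -0.34 ± 0.76, Arfgap2 at 0.23 ± 0.21 and the cargo receptor Surf4 at 0.23 ± 0.23. In mitochondria, 2 of 18 were higher (Mmadhc and Yme1l1) and 2 lower (Gpd2 and Idh3b), with Mtx2 at 0.24 ± 0.26 and the cysteine desulfurase Nfs1 at -0.19 ± 0.30. Of the 6 proteasome genes, 2 were higher (Psmd14 at 0.18 ± 0.08 and Psma7 at 0.10 ± 0.06) and 0 lower, with Psmd5 at 0.13 ± 0.15, Psmc3 at -0.05 ± 0.11 and the inhibitor Psmf1 at -0.17 ± 0.28.

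In translation, 1 of 7 was higher (Srp14 at 0.23 ± 0.09) and 1 lower (Eif2s2 at -0.27 ± 0.07), with Nat10 at 0.07 ± 0.11 and Mrps5 at -0.05 ± 0.09. Among the 12 differentiation and lysosome genes, 3 were higher and 0 lower. Vim, the intermediate filament vimentin, gave 187, 81.2 and 68.1 CPM in control and 180, 127 and 85.4 CPM in auxin cells, Ctsa stood at 0.20 ± 0.15, B2m at -0.12 ± 0.35 and Ttn at -0.25 ± 0.53. Of the COMMD genes, Commd3 alone kept its direction, though nearly equal between conditions in replicate 1, with Commd7 at 0.04 ± 0.28 and Commd9 at -0.02 ± 0.28.

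The share of cells with at least 1 UMI, averaged over the 208 genes, was 79.4, 80.1 and 82.0% in control and 83.1, 79.8 and 82.5% in auxin cells of replicates 1, 2 and 3. With each cell thinned to 20000 UMIs it was 65.7, 66.3 and 69.7% against 69.2, 67.1 and 71.8%, higher after auxin in 3 of 3 replicates by 2.12 ± 1.34 percentage points (SD, n = 3; exact sign-flip permutation p = 0.25). Thinning left out 0, 8 and 1 control cells and 0, 13 and 5 auxin cells, which had fewer UMIs. The ratio of variance to mean across thinned cells had a list median of 2.77, 2.59 and 2.40 in control and 2.52, 2.74 and 2.22 in auxin cells. It was thus lower after auxin in replicates 1 and 3 and higher in replicate 2 (exact sign-flip permutation p = 0.75 for the log2 ratio). By mean control value AA467197 and Ube2c stood highest, mainly through replicate 1, with 30.8, 1.28 and 3.71 for AA467197 and 13.1, 4.96 and 4.64 for Ube2c in control cells of replicates 1, 2 and 3.

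To ask whether the genes varied together, the Spearman correlation across cells was computed on CPM within each replicate and condition, for the 21115 pairs of the 206 members on chromosome 2 other than Tmx2, which has no UMI in some sums. The mean correlation was low. It was 0.0225, 0.0795 and 0.0126 in control cells of replicates 1, 2 and 3 and 0.0186, 0.0750 and 0.0284 in auxin cells. The difference was -0.00393, -0.00452 and 0.0159, a mean of 0.00247 ± 0.0116 (SD, n = 3; exact sign-flip permutation p = 1), so that it did not exceed the spread between replicates and was positive in 1 of 3.

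Pairs of a listed gene and a gene of another chromosome had lower means, at 0.0145, 0.0549 and 0.00680 in control and 0.0118, 0.0572 and 0.0234 in auxin cells. The excess of listed pairs over these was 0.00807, 0.0246 and 0.00576 in control and 0.00682, 0.0177 and 0.00505 in auxin cells, and listed genes are also the more abundant ones. Among genes of at least 10 UMI the listed pairs did not exceed the pairs with other chromosomes in control cells of replicate 2 (0.0890 against 0.0893). Over all genes of at least 1 UMI, the excess was smaller after auxin in 3 of 3 replicates, by 0.00125, 0.00684 and 0.000716, a mean difference of -0.00294 ± 0.00339 (exact sign-flip permutation p = 0.25). With both sides limited to genes of at least 10 UMI, the difference was positive in 3 of 3 replicates, with a mean of 0.00442. The shared direction was also lost with cells thinned to 20000 UMIs (mean -0.00130), with the UMI count partialled out (-8.6e-06), with genes of at least 3 UMI (-3.7e-05), with cells of more than 4000 detected genes (-0.00107), without the mitosis and S phase members (-0.00247), with plates as annotated (-0.00172), with Pearson's correlation of log2 CPM (-0.000192) and on raw counts (0.00997). Against other chromosome 2 genes the difference was -0.00822 ± 0.00966, negative in 3 of 3 (exact sign-flip permutation p = 0.25). It was positive in 1 replicate with thinned cells (mean -0.00400), with the UMI count partialled out (-0.00274), with Pearson's correlation (-0.00531), with the disputed plates swapped (-0.00766) and with genes of at least 10 UMI (-0.00349), and on raw counts its mean was 0.009998.

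Of the listed pairs, 2633 had a higher correlation after auxin in all 3 replicates (12.5%, against 13.6% of pairs with another chromosome) and 2673 a lower one (12.7%, against 11.5%). On raw counts, which keep the UMI total of the cell in the correlation, the listed pairs were more correlated after auxin in 3 of 3 replicates, by 0.00889, 0.0201 and 0.139. The coefficient of variation of UMIs per cell was 37.9, 48.4 and 30.6% in control and 34.3, 51.5 and 44.4% in auxin cells, with its largest shift in replicate 3, and its part in the raw-count values was not tested. With the UMI count partialled out, the mean difference was 6.3e-05, and with each cell thinned to 20000 UMIs it was -0.00156.

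The correlation hardly changed with distance along the chromosome. In control cells, averaged over replicates, it was 0.0391 for 419 pairs with starts under 1 Mb apart, 0.0403 for 991 pairs at 1 to 5 Mb, 0.0385 for 3278 pairs at 5 to 20 Mb, 0.0384 for 6674 pairs at 20 to 60 Mb and 0.0377 for 9753 pairs over 60 Mb apart. In auxin cells the same means ran from 0.0405 to 0.0412. Auxin minus control was between 0.000813 and 0.00299 in every bin, with an SD over replicates of at least 0.00887, and in each bin it was negative in replicates 1 and 2 and positive in replicate 3.

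**Figure D3:**
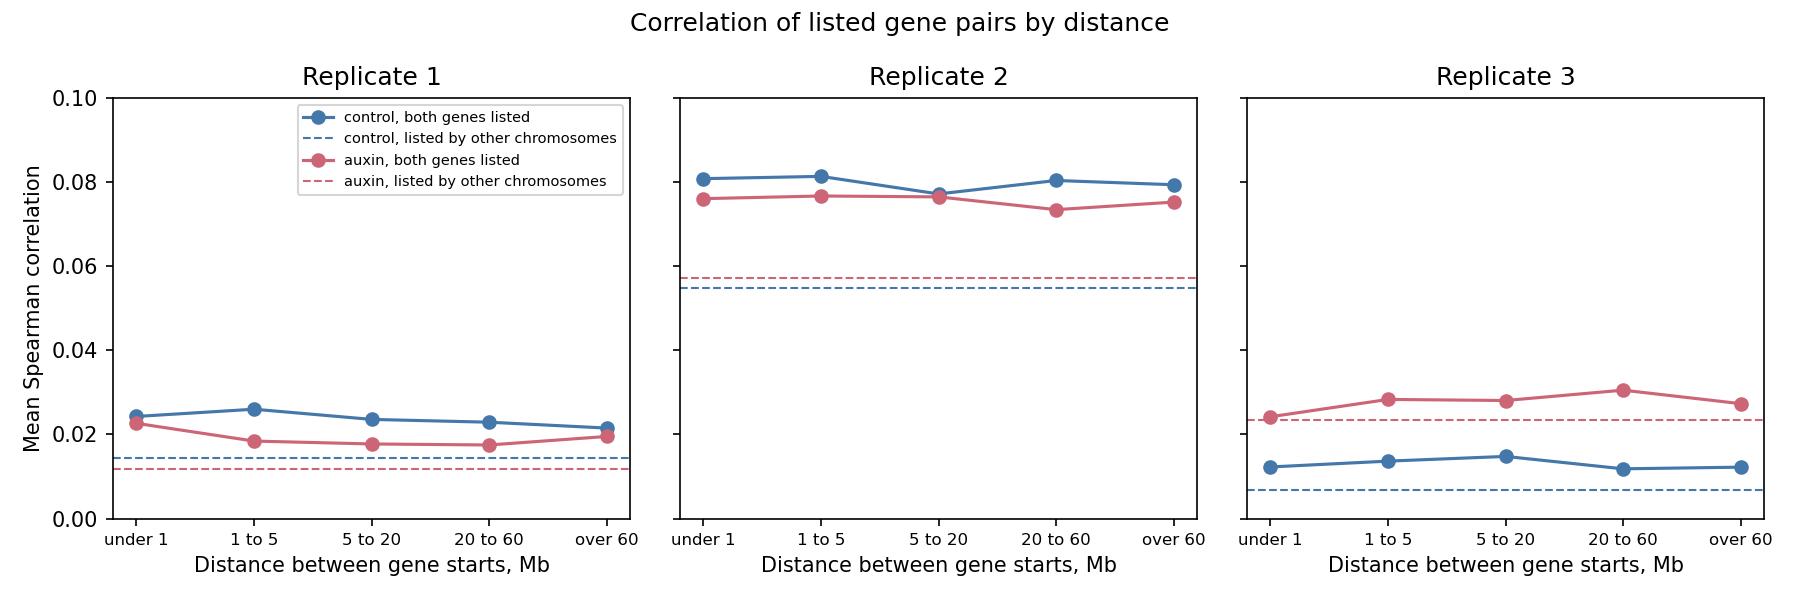
Mean Spearman correlation of CPM across cells (vertical axis) for pairs of listed genes in 5 bins of distance between starts in Mb (horizontal axis), 1 panel per replicate, in control (blue) and auxin cells (red); dashed lines give pairs of a listed gene and a gene of another chromosome. The lines are flat over distance and the replicates differ more than the conditions, with replicate 2 near 0.08.

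At the level of pairs, mitosis stood apart. Of 21115 pairs, 14 had a mean control correlation over 0.3, and the 8 highest all joined genes of the mitosis list. Nusap1 and Ube2c, 45.2 Mb apart, correlated at 0.62, 0.52 and 0.53 in control and 0.70, 0.72 and 0.58 in auxin cells of replicates 1, 2 and 3. Ube2c and Aurka gave 0.59, 0.45 and 0.63 in control and 0.52, 0.55 and 0.52 in auxin cells, and Nusap1 and Aurka 0.53, 0.43 and 0.62 against 0.58, 0.51 and 0.55. Of these 3 pairs, Nusap1 with Ube2c alone was above its control value in every replicate. The next were Ckap2l with Ube2c, Nusap1 with Ckap2l, Nusap1 with Tpx2 (an activator of Aurora A), Knstrn (a kinetochore protein) with Aurka and Ckap2l with Aurka, with control means between 0.37 and 0.41 and auxin means between 0.34 and 0.44.

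Averaged over its 91 pairs, the mitosis list had a correlation of 0.21, 0.17 and 0.12 in control and 0.18, 0.18 and 0.16 in auxin cells, a difference of 0.00650 ± 0.0360 (SD, n = 3; exact sign-flip permutation p = 0.75). The S phase list gave 0.08, 0.07 and 0.08 in control and 0.07, 0.13 and 0.02 in auxin cells. Proteasome pairs gave 0.03, 0.14 and 0.05 in control and 0.03, 0.10 and 0.04 in auxin cells. Pairs of genes in no list gave 0.02, 0.09 and 0.01 against 0.02, 0.07 and 0.03. The mitosis and proteasome lists lay above the pairs in no list in every replicate and condition. In control cells the means of transcription and chromatin, RNA processing and export, translation, COMMD and differentiation and lysosome lay below that of the pairs in no list. In 2 lists the correlation was higher after auxin in 3 of 3 replicates. The 3 COMMD pairs gave -0.03, 0.13 and -0.06 in control and 0.04, 0.14 and 0.08 in auxin cells, a mean difference of 0.0752 ± 0.0632 (SD, n = 3; exact sign-flip permutation p = 0.25), although 0 of the 3 pairs was itself higher in all replicates. The 66 differentiation and lysosome pairs gave 0.01, 0.05 and -0.01 against 0.02, 0.05 and 0.04, a mean difference of 0.0207 ± 0.0227 (exact sign-flip permutation p = 0.25).

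**Figure D4:**
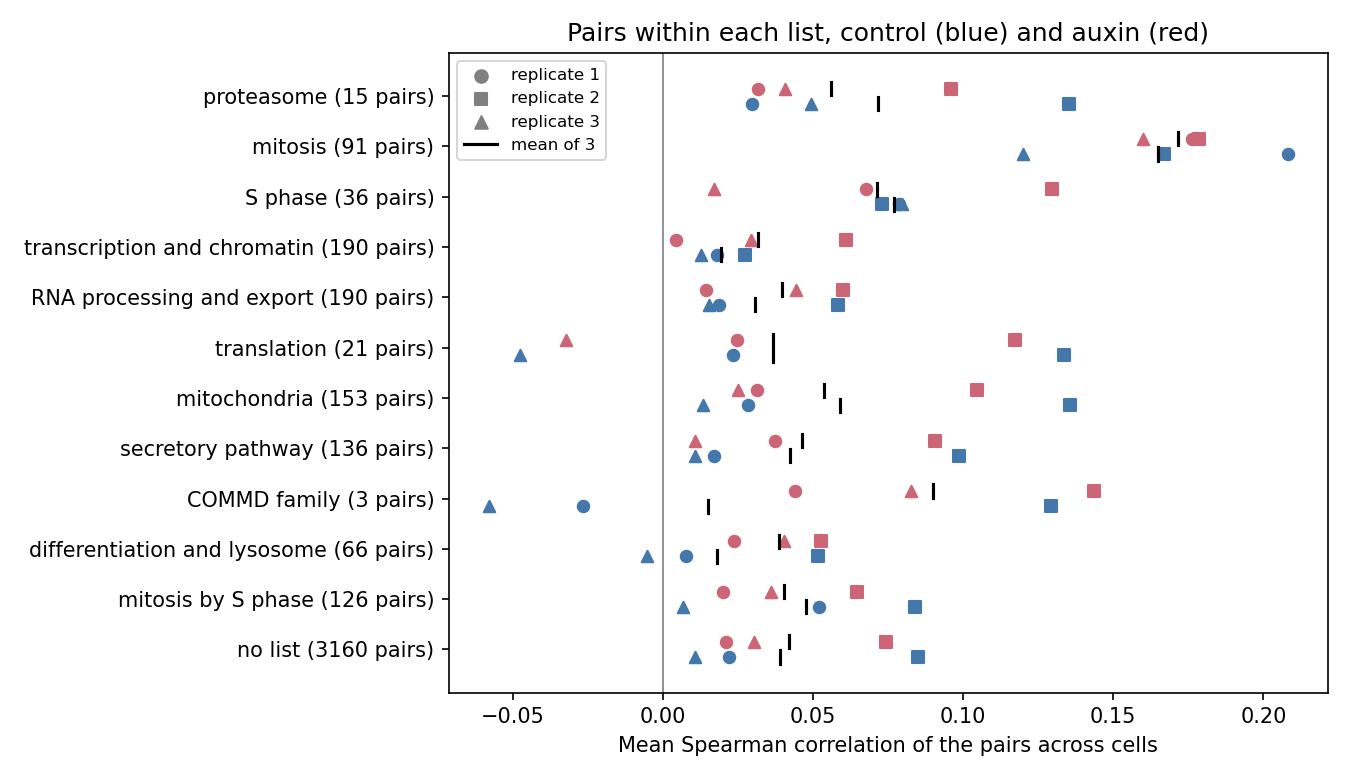
Mean Spearman correlation of CPM across cells (horizontal axis) for pairs within each functional list, with control in blue and auxin in red, circles, squares and triangles for replicates 1, 2 and 3, and a black bar for their mean. Mitosis pairs lie between 0.12 and 0.21 in all 6 values, to the right of the other lists' means.

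The largest changes of 1 direction in all replicates were in pairs of unrelated function. Tor1a (torsin, of the endoplasmic reticulum) and Ywhab (a 14-3-3 protein) correlated at 0.04, 0.19 and 0.33 in control and -0.08, -0.02 and -0.20 in auxin cells. Snrpb (a core spliceosome protein) and Cdk5rap1 gave 0.17, 0.15 and 0.16 against -0.19, 0.03 and -0.17. Fbxw2 and Ctsa, Mtch2 and Ctnnbl1 were also lower after auxin, with mean differences of -0.28 and -0.27, and Smtnl1 and Mgme1 were higher, at -0.04, -0.05 and -0.08 in control and 0.25, 0.13 and 0.23 in auxin cells. These 5 were picked from 21115 pairs for their size, and the median SD of a pair's control value over replicates was 0.0829.

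In 7 pairs the annotated starts lay within 1 kb on opposite strands, in head-to-head order. In 3 of them (Nudt5 with Cdc123, Arpc5l with Rpl35 and Mgme1 with Snx5) the starts cross, so that the first bases of the genes overlap. Cstf1 (a cleavage stimulation factor) and Aurka, with starts 146 bases apart at 172370681 (plus) and 172370535 (minus), correlated at 0.16, 0.11 and 0.28 in control and 0.11, 0.19 and 0.15 in auxin cells, above all but 0.857% of pairs in control. Nudt5 with Cdc123 gave a control mean of 0.13 and Pmpca with Sdccag3 one of 0.10. The other four, Arpc5l with Rpl35, March7 with Baz2b, Mgme1 with Snx5 and Gid8 with Dido1, had control means from 0.04 to 0.09. Mgme1 with Snx5 alone moved 1 way in every replicate, at 0.11, 0.11 and -0.03 in control and -0.05, 0.07 and -0.21 in auxin cells.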

How the data were processed

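The authors aligned reads to mm10 and deposited UMI counts per gene and well; the aligner and gene annotation are not given in the sources used here. The deposited tables also hold 92 spike-in and 11 transgene rows, which were left out, and the counts of detected genes per well. Per the labels and annotation, wells were assigned to condition by plate, and a floor of 2600 detected genes, which cells had to exceed, left 1335 of 1536 sorted wells. The study describes its sequencing replicates as biological repeats of the whole procedure.

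UMI sums of each replicate and treatment were tested over all genes with edgeR 4.0.16 (quasi-likelihood, TMM, filterByExpr) and DESeq2 1.42.0 in R 4.3.3, adjusted by Benjamini-Hochberg with a threshold of 0.05. Replicate numbers pair the samples: deviations from group means correlated at 0.866, 0.822 and 0.656 over 17514 genes, so the replicate block is given beside the main fit. Correlations used ranks of CPM per cell, and the scripts were tested on simulated data. Named genes follow fixed ranks: the 6 highest and 6 lowest levels, members past the threshold, the 8 largest changes of 1 direction, the 5 most uneven controls, the 8 highest and 5 most changed pairs, divergent pairs, both ends of each list, and mismatched entries; other genes were named after their values were seen. The values of 1 gene that these ranks would name are not reported here. The members and lists were chosen with earlier results of these data known. Sequences are from RefSeq (GRCm38.p6). The wells carry 1536 distinct names and reuse 288 well barcodes across plates.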

Additional observations from a re-analysis of the deposited data

How the results depend on the processing

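The number of listed genes called was 0 in edgeR with and without the replicate block, in DESeq2 without it and in every other setting run except 2: it was 2 in DESeq2 with the replicate block, and 1 in edgeR with the replicate block without replicate 2. The last setting was not among those planned. Fits without the block count differences between replicates as error, so their 0 says little about small changes. Without replicate 1, 2 or 3 in turn, the genes higher in all remaining replicates numbered 82 (without replicate 2) to 89 (without replicate 3) and those lower 26 to 40, since fewer replicates had to share a direction. The mean change in pairwise correlation was 0.0559 on raw counts and -0.00951 when each group was cut to 84 cells. The excess of listed pairs over pairs with other chromosomes changed by 0.00997 on raw counts and, in a setting chosen after seeing the data, by 0.00442 among genes of at least 10 UMI. Leaving out 1 replicate gave -0.00422 to 0.00597 for the first of these and -0.00405 to -0.000983 for the second. The causes were not tested. The log2 fold changes of 9 named genes kept their direction in all 153 alternative values, and 2 of these, of Rrbp1 and Eif2s2 in DESeq2 with the block, passed the threshold. These genes were picked for moving 1 way in all 3 replicates or for a call in DESeq2 with the block. Their kept direction was largely set by that choice. With the 2 disputed plates added, as annotated or with opposite labels, 0 members were called. With 3 replicates no sign-flip test can go below 0.25.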
